A study of Canis lupus familiaris with 29 samples.

Results

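The transcripts followed here encode ligands, a binding protein, a receptor and a target of the TGF-beta and activin pathway in MDCKII cells, an established dog kidney epithelial line that forms flat sheets or hollow cysts in culture. The genes were chosen by name (TGFB1, TGFB2, TGFBI, TGFBR2, INHBA and FST), with the level on gel against that on inserts as the main interest. Of these 6 names, 5 were analysed, each with 1 row among the 24223 genes listed, and TGFB1 was not analysed here. All 5 were among the 11774 genes that reached 1 FPKM (fragments per kilobase of transcript, scaled to library size) in at least 2 libraries. The choice was made with levels of these libraries known, so the gel and insert values below are a description and were given no test.

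RNA sequencing covered 29 libraries in 13 groups. The wild-type groups were the cells used for seeding (day 0, n = 4), 3D cultures on top of matrigel, a basement membrane gel, with 2 libraries at each of 24 h, day 3, day 5 and day 8 and 1 library at day 14, and 2D cultures on transwell inserts with 3 libraries at each of day 4 and day 11. In the knockdown (KD) groups the target was DENND5A or AVL9, both of the DENN domain family, whose products act in membrane traffic. Each knockdown had 2 libraries at day 0 and 2 at insert day 4, and DENND5A-KD cells had 2 more at insert day 7. DENND5A-KD samples are numbered 1 or 2 and AVL9-KD samples 1 or 4, and it is not stated if a number is a clone, a hairpin or a guide. All knockdown comparisons were made with unmodified wild-type cells, since no control line carried through the same steps was among the samples used. It is also not stated if replicates came from separate cultures, so the p-values rest on a spread between libraries that may be technical.

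Ligands of the TGF-beta and activin families bind a type II receptor, which recruits and phosphorylates a type I receptor, which in turn phosphorylates SMAD2 and SMAD3. TGF-beta is secreted in a latent complex, tethered to the matrix by LTBP proteins and released by integrins or thrombospondin, whereas activin is secreted active and is held in check by follistatin. In kidney epithelium the pathway is known for its part in matrix deposition, growth arrest and the loss of epithelial character. Among the genes followed, INHBA encodes the beta A subunit of activin A and TGFB2 encodes the ligand TGF-beta 2. FST encodes follistatin, TGFBR2 the type II receptor for TGF-beta, and TGFBI a secreted matrix protein that is named for its induction by TGF-beta.

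The libraries summed to between 276017 and 441332 FPKM, with 10163 to 10903 genes at 1 FPKM or more. Read counts were not used, and depth relative to day 0 replicate 2, read from the steps between low FPKM values, ran from 0.443 to 1.68. In 5 wild-type libraries the relative depth was low, 0.443 to 0.719 against 0.826 to 1.11 in the other wild-type libraries: replicate 1 of day 0, gel day 3, gel day 8 and insert day 4, and the gel day 14 library. Below, the 5 libraries of low depth are these wild-type ones only. Knockdown libraries ran from 0.536 to 1.68. AVL9-KD numbers 1 and 4 were unlike in depth, at 0.683 and 1.68 at day 0 and at 1.65 and 0.536 at insert day 4. The targeted genes matched the labels: AVL9 read 3.89 to 7.21 FPKM in the 4 AVL9-KD libraries and 17.9 to 25.1 FPKM in wild-type libraries of the same days. DENND5A read 1.88 to 2.02 FPKM in DENND5A-KD cells at day 0 against 4.98 to 6.89 FPKM in wild-type cells, and 3.36 to 4.29 FPKM against 10.2 to 10.9 FPKM at insert day 4. Of 8 listed epithelial markers 6 had a row, with a summed level of 472.8 to 829 FPKM. In every library EPCAM (224.9 to 378.5 FPKM), CDH1 (60.16 to 332.5), OCLN (24.11 to 39.65) and TJP1 (10.63 to 40.93) were present. CLDN2 ran from 0 to 163.3 FPKM and CDH16 from 0.0345 to 68.61, so these were not present throughout. None of the fibroblast (6), endothelial (5) or leukocyte (5) markers with a row reached 1 FPKM, and their summed levels were at most 0.644, 0.947 and 0.672 FPKM. In bulk RNA, fewer cells that express a gene and less of its RNA per cell cannot be told apart.

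INHBA (ENSCAFG00000003550), the activin A subunit, was highest in wild-type cells at seeding, where the 4 libraries read 13.8, 9.71, 9.26 and 6.56 FPKM. On gel the libraries read 4.54 and 4.26 FPKM at 24 h, 1.29 and 1.03 at day 3, 0.437 and 0.265 at day 5, 0.117 and 0.0393 at day 8, and 0.235 in the day 14 library. On inserts they read 2.92, 2.83 and 1.30 FPKM at day 4 and 2.39, 2.27 and 2.29 at day 11. Every wild-type library on gel or inserts was thus below every wild-type day 0 library. The gel libraries of each day from 24 h to day 8 lay below those of the day before, while the levels at insert days 4 and 11 overlapped. The mean on gel days 3, 5 and 8 was 0.529 FPKM and that on insert days 4 and 11 was 2.33 FPKM, 4.41-fold higher. The gel library of these days with the most (1.29) and the wild-type insert library with the least (1.30) almost met.

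FST (ENSCAFG00000018405), which encodes the follistatin that binds and neutralises activin, had the widest spread at seeding, with 81.1, 19.5, 34.5 and 11.4 FPKM in the 4 day 0 libraries. On gel it read 9.12 and 11.0 FPKM at 24 h, 1.38 and 1.23 at day 3, 0.340 and 0.281 at day 5, 0.142 and 0.132 at day 8, and 0.105 in the day 14 library. On inserts it read 11.5, 11.9 and 3.45 FPKM at day 4 and 8.77, 6.98 and 9.08 at day 11. From day 3 on, no gel library was above 1.38 FPKM and no insert library was under 3.45 FPKM, so the cultures did not overlap. The mean over insert days 4 and 11 (8.61 FPKM) was 14.7-fold that over gel days 3, 5 and 8 (0.585 FPKM). Insert day 4 overlapped day 0, through the day 0 library at 11.4 FPKM.

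TGFB2 (ENSCAFG00000010815), the TGF-beta 2 ligand, read 12.9, 21.3, 15.8 and 17.1 FPKM at seeding. On gel it read 7.55 and 6.33 FPKM at 24 h, 1.43 and 0.958 at day 3, 0.402 and 0.543 at day 5, 0.697 and 0.316 at day 8, and 1.01 in the day 14 library. On inserts it read 11.3, 7.83 and 9.55 FPKM at day 4 and 22.3, 24.6 and 18.5 at day 11. The lowest wild-type insert library was therefore above the highest gel library, those at 24 h included. The mean over insert days 4 and 11 (15.7 FPKM) was 21.7-fold that over gel days 3, 5 and 8 (0.724 FPKM). Set against day 0, the level at insert day 4 was lower in all 3 libraries, and that at day 11 overlapped it.

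TGFBR2 (ENSCAFG00000005449), the type II receptor, varied less. Its libraries read 19.0, 18.2, 15.2 and 16.1 FPKM at seeding, 13.4 and 12.8 at gel 24 h, 10.1 and 9.84 at gel day 3, 8.34 and 9.14 at day 5, 10.1 and 7.23 at day 8, and 10.5 at day 14. On inserts they read 20.4, 15.6 and 14.1 FPKM at day 4 and 20.6, 20.9 and 18.7 at day 11. The insert libraries overlapped day 0 at both times, and all gel libraries lay below them, with a 2.02-fold ratio of the mean over insert days 4 and 11 (18.4 FPKM) to that over gel days 3, 5 and 8 (9.12 FPKM).

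TGFBI (ENSCAFG00000001091), the matrix protein named for its induction by TGF-beta, ran the other way. It read 2.95, 4.25, 2.40 and 5.47 FPKM at seeding, and on gel 7.47 and 5.24 at 24 h, 23.0 and 18.3 at day 3, 18.6 and 18.3 at day 5, 18.8 and 10.2 at day 8, and 17.8 at day 14. On inserts it read 2.58, 2.83 and 2.78 FPKM at day 4 and 1.29, 1.43 and 1.58 at day 11. All gel libraries from day 3 were above every day 0 and insert library, the highest of which read 5.47 FPKM. The mean over gel days 3, 5 and 8 (17.9 FPKM) was 8.59-fold that over insert days 4 and 11 (2.08 FPKM), and insert day 11 lay below all 4 day 0 libraries.

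**Figure D1:**
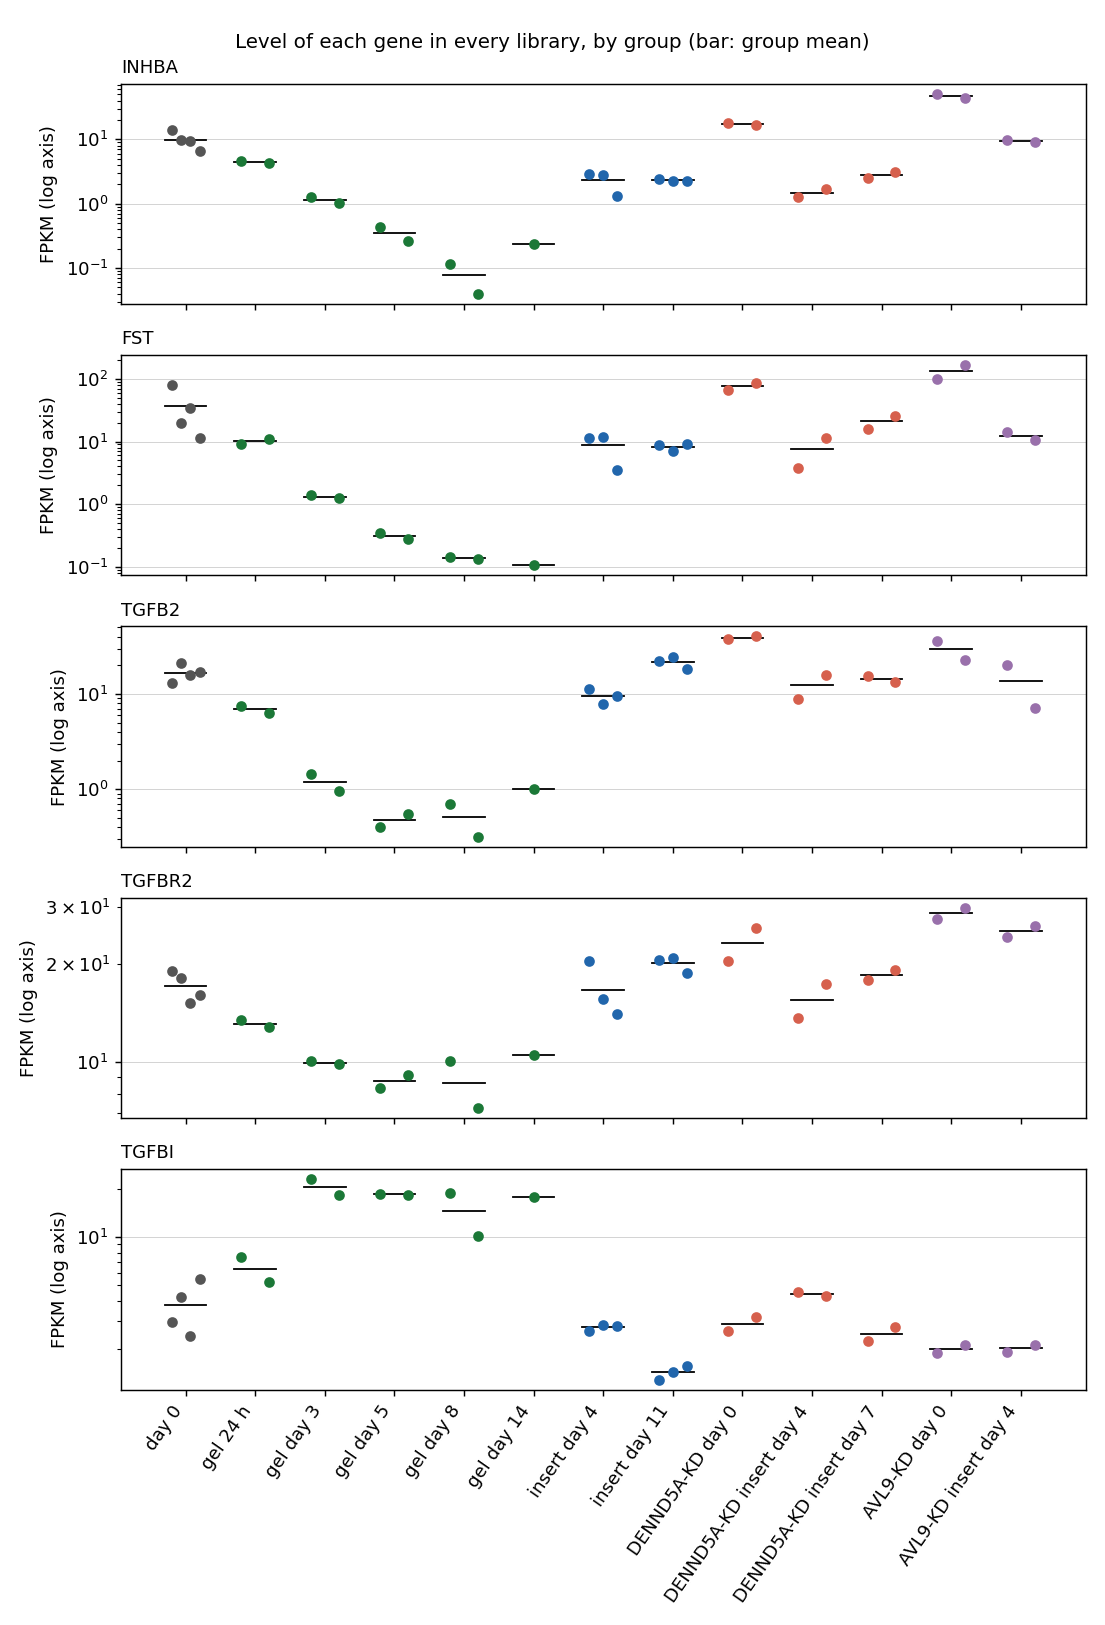
FPKM of INHBA, FST, TGFB2, TGFBR2 and TGFBI (1 panel each, log axis) in every library, with the 13 groups along the horizontal axis, points for libraries and a bar for the group mean. INHBA and FST are lowest on gel at days 5 to 14, TGFBI is highest on gel from day 3, and INHBA and FST have their highest levels in AVL9-KD cells at day 0.

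On the log2(FPKM + 1) scale used for all differences below, which understates the change of genes with low FPKM, gel days 3, 5 and 8 minus insert days 4 and 11 came to -3.19 ± 0.19 (SE) for TGFB2, -2.59 ± 0.35 for FST, -1.17 ± 0.14 for INHBA, -0.93 ± 0.09 for TGFBR2 and 2.61 ± 0.14 for TGFBI. The gel and insert libraries did not overlap for any of the 5 genes, which held for 26.4% of all genes tested, and since this contrast chose the genes nothing is read from the count. The difference at the later pair of times (gel day 8 minus insert day 11) was -3.92 for TGFB2, -3.02 for FST, -1.62 for INHBA, -1.14 for TGFBR2 and 2.62 for TGFBI. At the earlier pair (gel day 3 minus insert day 4) it was -2.26, -1.96, -0.60, -0.67 and 2.53 in the same order. For the 4 genes that were lower on gel, the difference was thus larger in size at the later pair of times, and for TGFBI the values lay close together. The median over all genes also moved, from 0.03 at the earlier pair to -0.20 at the later pair. At the later pair limma called 1283 of all genes higher and 4148 lower (2856 and 2897 after quantile normalization). The days of the pairs do not match, and whether the differences of the 5 genes themselves differ between the pairs was not tested.

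**Figure D2:**
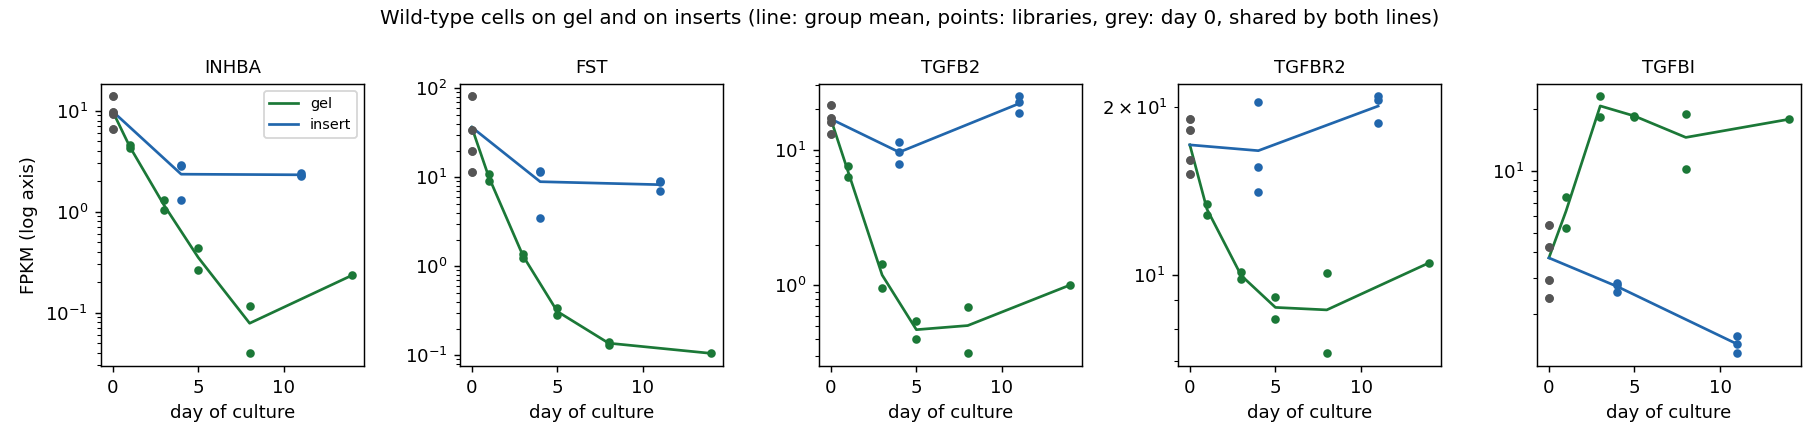
FPKM (log axis) against day of culture in wild-type cells, 1 panel per gene, with green for gel, blue for inserts, grey points for the day 0 libraries that both lines start from, lines through group means and points for libraries. The gel line of FST goes from 36.6 FPKM at day 0 to 0.137 at day 8 while its insert line stays at 8.94 and 8.28, and the lines of TGFBI part in opposite directions.

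Changes within a culture are other contrasts than that between gel and inserts, but most of their libraries also entered it, so the limma p-values below (over all 11774 genes) are not independent of the choice of the genes. From day 0 to 24 h on gel INHBA fell (-0.97 ± 0.20, adjusted p = 0.0215), which had already been seen in earlier results on these libraries and is no independent support. It did not pass with a pseudocount of 0.1 (0.0597) or in a fit of these groups alone (0.225), nor without either gel 24 h library (0.191 and 0.244, in a range from 0.00432 over the 6 omissions). The other 4 genes did not pass, where 1.19% of all genes did, with TGFB2 at -1.15 (adjusted p = 0.0558), FST at -1.41 (0.224), TGFBR2 at -0.35 (0.261) and TGFBI at 0.65 (0.148). The 24 h libraries lay below all 4 day 0 libraries for INHBA, FST, TGFB2 and TGFBR2, and overlapped them for TGFBI, where 27.1% of all genes did not overlap. TGFB2 passed in 3 of 9 other settings, with a random replicate block (adjusted p = 0.0275), a fixed one (0.0333) and median-ratio scaling (0.0273), in a range up to 0.119. TGFBR2 passed with median-ratio scaling (0.028), and TGFBI without day 0 replicate 4 (0.0474, in a range from 0.0474 to 0.703 over its omissions).

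From gel day 3 to day 8 INHBA fell by 1.00 on the log2 scale (SE 0.24, adjusted p = 0.00838), while 15.6% of all genes passed in either direction. The median over all genes was -0.19, with 173 genes called higher and 1665 lower (525 and 697 after quantile normalization). A fit of these groups alone called 0 genes higher and 2 lower. In FPKM the mean of INHBA went from 1.16 to 0.0783. FST, TGFB2, TGFBI and TGFBR2 did not pass (-1.02, -0.54, -0.53 and -0.20, adjusted p = 0.272, 0.281, 0.148 and 0.432). The FST libraries went from 1.38 and 1.23 FPKM to 0.142 and 0.132, which had been seen earlier, and with a pseudocount of 0.1 in place of 1 the difference was -2.57 (adjusted p = 0.0124). The call for INHBA was lost without gel day 3 replicate 1 (0.074) or gel day 8 replicate 2 (0.0718), without the 5 libraries of low depth (0.0545) and in a fit of these groups alone (0.079). TGFBI passed at -0.94 (adjusted p = 0.0255) without gel day 8 replicate 1, with 0.0255 to 0.848 over its 4 omissions.

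Between insert day 4 and day 11, 1 of the 5 genes changed, where 2.08% of all genes passed. TGFB2 rose by 1.11 ± 0.27 (adjusted p = 0.038), a 2.28-fold rise from 9.56 to 21.8 FPKM, with all 3 day 11 libraries above all 3 day 4 libraries. INHBA (0.03, adjusted p = 0.972) and FST (0.04, adjusted p = 0.984) had nearly equal means at these days, TGFBR2 was at 0.27 (0.35) and TGFBI at -0.62 (0.119), with its 3 day 11 libraries below its 3 day 4 libraries. Ranges did not overlap for TGFB2 and TGFBI, 2 of the 5 genes, against 19.3% of all genes. The TGFB2 call did not hold up to leaving out insert day 4 replicate 2 or 3 or insert day 11 replicate 1 or 2 (adjusted p = 0.0914 to 0.235), and it passed in 5 of 9 other settings. It was at 0.0567 without the 5 libraries of low depth, 0.0588 with a pseudocount of 0.1, 0.0631 with no filter and 0.236 in a fit of these groups alone. That last fit called 2 of all genes higher and 0 lower.

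Ordered by mean over the 13 groups, INHBA was highest in AVL9-KD cells at day 0, with 47.7 ± 5.05 FPKM (SD, n = 2), and ran down to 0.0783 ± 0.0550 (n = 2) at gel day 8, and FST from 133 ± 48.3 (n = 2) in the same AVL9-KD group to 0.105 in the gel day 14 library. TGFB2 ran from 38.8 ± 2.00 FPKM (n = 2) in DENND5A-KD cells at day 0 to 0.472 ± 0.1002 (n = 2) at gel day 5. TGFBR2 ran from 28.7 ± 1.56 (n = 2) in AVL9-KD cells at day 0 to 8.65 ± 2.01 (n = 2) at gel day 8, and TGFBI from 20.7 ± 3.26 (n = 2) at gel day 3 to 1.43 ± 0.142 (n = 3) at insert day 11. Neighbours in these orders often overlapped: for TGFB2 all groups from AVL9-KD day 0 down to wild-type insert day 4 overlapped the next. For INHBA the ranges of wild-type day 0 and AVL9-KD insert day 4 overlapped, as did DENND5A-KD insert day 7, wild-type insert day 4 and insert day 11. Gel day 5, day 8 and day 14 were the 3 lowest groups for INHBA, FST and TGFB2, and gel days 3, 5, 8 and 14 the 4 highest for TGFBI.

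The knockdown libraries had no part in the comparison of gel with inserts that the genes were chosen for, and they were tested. Their wild-type reference at insert day 4, also used in the interactions below, did have a part in it. The genes were also chosen with earlier results of these data known, so the knockdown p-values are not independent of the choice. At day 0, INHBA read 51.2 and 44.1 FPKM in AVL9-KD cells and 18.1 and 17.0 FPKM in DENND5A-KD cells, against 6.56 to 13.8 FPKM in wild-type cells. All 4 knockdown libraries were above all 4 wild-type libraries. INHBA was higher by 2.204 ± 0.204 in AVL9-KD cells (adjusted p = 4.343e-07, 4.84-fold in FPKM) and by 0.82 ± 0.20 in DENND5A-KD cells (adjusted p = 0.019, 1.78-fold). The AVL9-KD call held under all 8 other settings and all 6 omissions of a library. That for DENND5A-KD was lost without either knockdown library (adjusted p = 0.191 and 0.134) and without wild-type day 0 replicate 4 (0.0511), in a range from 0.00249 to 0.191, and also with a pseudocount of 0.1 (0.0815) and in a fit of these groups alone (0.187).

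FST read 98.5 and 167 FPKM in AVL9-KD cells at day 0, above the highest wild-type library (81.1 FPKM), and 66.6 and 86.0 FPKM in DENND5A-KD cells, which overlapped wild type. It was higher in AVL9-KD cells by 2.14 ± 0.53 (adjusted p = 0.00891), a call lost without AVL9-KD number 4 (1.76, adjusted p = 0.0948) and in a fit of these groups alone (0.144). In DENND5A-KD cells the difference of 1.39 ± 0.53 did not pass (adjusted p = 0.169). Without wild-type day 0 replicate 1, which had the highest FST of its group and is of low depth, it was 1.88 and passed (adjusted p = 0.0137, in a range over the 6 omissions from 0.0137 to 0.636).

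TGFB2 read 37.4 and 40.3 FPKM in DENND5A-KD and 36.2 and 22.7 FPKM in AVL9-KD cells at day 0, all above the highest wild-type library (21.3 FPKM). The difference passed for DENND5A-KD (1.18 ± 0.29, adjusted p = 0.016) and not for AVL9-KD (0.76 ± 0.29, adjusted p = 0.0723). The DENND5A-KD call was lost without either of its 2 libraries (adjusted p = 0.11 and 0.176) and without the 5 libraries of low depth (0.0559). TGFBR2 read 27.6 and 29.8 FPKM in AVL9-KD cells, a difference of 0.72 ± 0.14 (adjusted p = 0.00183) that held under all 8 other settings and all 6 omissions. In DENND5A-KD cells TGFBR2 read 20.5 and 25.8 FPKM, above all 4 wild-type libraries (0.41 ± 0.14, adjusted p = 0.11), and passed in 4 of 8 other settings (adjusted p from 0.0103 to 0.213 over the 8). TGFBI was lower in AVL9-KD cells at day 0, at 1.88 and 2.13 FPKM (-0.62 ± 0.21, adjusted p = 0.048), a call lost without wild-type day 0 replicate 2 or 4 or either AVL9-KD library (adjusted p = 0.0987 to 0.243). It was also lost in 4 of 8 other settings, with the replicate block (0.06), a batch term (0.054), no filter (0.0732) and these groups alone (0.21). In DENND5A-KD cells TGFBI overlapped wild type at 2.60 and 3.16 FPKM (-0.25, adjusted p = 0.692).

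In count, 3 of the 5 genes were higher and 1 lower in AVL9-KD cells at day 0, where 18.0% of all genes passed, and 2 were higher and none lower in DENND5A-KD cells, where 5.52% passed. By their ranges, all 5 genes were apart from wild type in AVL9-KD cells and 3 in DENND5A-KD cells, against 36.2% and 24.5% of all genes. The AVL9-KD comparison was not centred on 0: its median over all genes was 0.11, with 1578 genes higher and 540 lower, and 897 higher and 955 lower after quantile normalization. Under quantile normalization the 4 calls kept their direction and their side of the threshold, with INHBA at 1.94, FST at 1.93, TGFBR2 at 0.52 and TGFBI at -0.62.

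At insert day 4, INHBA read 9.58 and 9.20 FPKM in AVL9-KD cells against 2.92, 2.83 and 1.30 FPKM in wild-type cells, higher by 1.67 ± 0.21 (adjusted p = 3.356e-05, 4.00-fold). TGFBR2 read 24.3 and 26.1 FPKM in AVL9-KD cells, above the 3 wild-type libraries, and was higher by 0.58 ± 0.15 (adjusted p = 0.00982). These were the 2 of 5 genes that passed, where 21.0% of all genes did, and TGFBI, lower than in wild type, was the third whose ranges did not overlap, as held for 44.2% of all genes. The median over all genes was 0.19 in this comparison, with 2199 genes higher and 275 lower (1101 and 972 after quantile normalization, which left INHBA at 1.55 and TGFBR2 at 0.37, both past the threshold). INHBA passed in all 5 omissions of a library and in 7 of 8 other settings, the exception being a fit of these groups alone (adjusted p = 0.0864). TGFBR2 did not pass without wild-type insert day 4 replicate 3 (0.0553) or AVL9-KD number 4 (0.0611), in a range from 0.00252 to 0.0611, nor in a fit of these groups alone (0.17). FST (0.56, adjusted p = 0.496), with 14.1 and 10.5 FPKM, and TGFBI (-0.31, adjusted p = 0.341), with 1.93 and 2.11 FPKM, did not pass. TGFB2 differed between the AVL9-KD libraries, 20.2 FPKM in number 1 and 7.08 in number 4, and did not pass (0.32, adjusted p = 0.468), except without number 4 (1.02, adjusted p = 0.0219, in a range from 0.0219 to 0.697).

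In DENND5A-KD cells at insert day 4, limma called 0 of the 5 genes, where 11.3% of all genes passed, and 1 gene had an unadjusted p under 0.05. INHBA read 1.25 and 1.69 FPKM (-0.40 ± 0.21, adjusted p = 0.271), FST 3.77 and 11.2 FPKM (-0.23), TGFB2 8.80 and 15.9 FPKM (0.30) and TGFBR2 13.6 and 17.4 FPKM (-0.09), each overlapping wild type. TGFBI, at 4.52 and 4.30 FPKM, lay above the 3 wild-type libraries (0.54, adjusted p = 0.142), 1 of the 5 genes without overlap, against 34.7% of all genes. Without wild-type insert day 4 replicate 3, which had the lowest INHBA and FST of its group, INHBA passed at -0.66 (adjusted p = 0.0388, in a range from 0.0388 to 0.768).

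**Figure D3:**
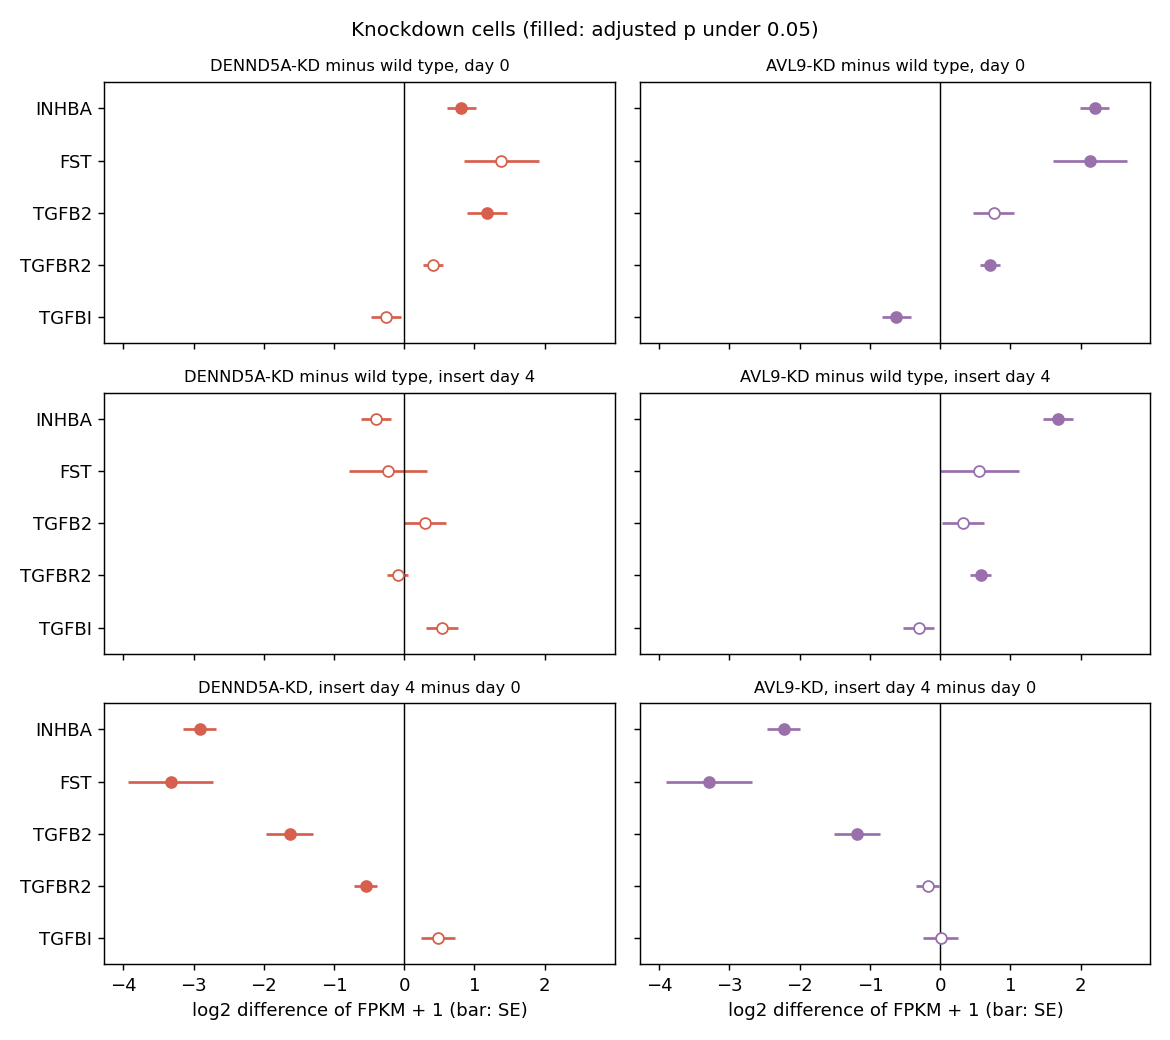
Log2 differences of FPKM + 1 with their SE (horizontal axis) for the 5 genes, in 6 panels: DENND5A-KD (left) and AVL9-KD (right) minus wild type at day 0 and at insert day 4, and insert day 4 minus day 0 within each knockdown. Filled points passed an adjusted p of 0.05, and INHBA passed in all 3 panels of AVL9-KD cells, at 2.204, 1.67 and -2.22.

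From day 0 to insert day 4 INHBA, FST and TGFB2 fell within each knockdown. INHBA went from 18.1 and 17.0 to 1.25 and 1.69 FPKM in DENND5A-KD cells (-2.91 ± 0.24, adjusted p = 9.334e-08) and from 51.2 and 44.1 to 9.58 and 9.20 FPKM in AVL9-KD cells (-2.22 ± 0.24, adjusted p = 2.423e-07). FST went from 66.6 and 86.0 to 3.77 and 11.2 FPKM (-3.33 ± 0.61, adjusted p = 0.000246) and from 98.5 and 167 to 14.1 and 10.5 FPKM (-3.29 ± 0.61, adjusted p = 0.000151). These falls of INHBA and FST held under all 9 other settings and all 4 omissions in each knockdown. TGFB2 fell by 1.63 (SE 0.33, adjusted p = 0.000632) in DENND5A-KD and by 1.18 (SE 0.33, adjusted p = 0.0053) in AVL9-KD cells, the latter lost without AVL9-KD number 1 at day 0 (0.083) or number 4 at insert day 4 (-0.49, adjusted p = 0.218), and in a fit of these groups alone (0.18).

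TGFBR2 fell in DENND5A-KD cells between these days (-0.55 ± 0.16, adjusted p = 0.0106), a call lost without number 2 at day 0 (0.144) or number 1 at insert day 4 (0.134) and in a fit of these groups alone (0.078), and was at -0.18 in AVL9-KD cells (adjusted p = 0.377). TGFBI did not pass in either (0.48, adjusted p = 0.122, and 0.01, adjusted p = 0.991). So 4 of the 5 genes fell in DENND5A-KD cells, where limma called 2615 of all 11774 genes lower (42.3% passed in either direction). In AVL9-KD cells 3 of the 5 fell, where 2689 of all 11774 genes were called lower (53.9% passed in either direction). In wild-type cells, whose insert libraries had a part in the choice of the genes, insert day 4 minus day 0 was -1.69 for INHBA, -1.71 for FST, -0.74 for TGFB2, -0.04 for TGFBR2 and -0.31 for TGFBI. Between insert days 4 and 7 in DENND5A-KD cells limma called 0 of the 5 genes and 0.0510% of all genes, and 3 of the 5 had an unadjusted p under 0.05. FST read 16.0 and 26.0 FPKM at day 7 (1.49, adjusted p = 0.629) and INHBA 2.53 and 3.098 FPKM (0.63, adjusted p = 0.504), above both day 4 libraries of the same cells in each case, and TGFBI, at 2.23 and 2.76 FPKM, lay below them (-0.63, adjusted p = 0.55). TGFBR2, at 17.8 and 19.1 FPKM, was also above both (0.25, adjusted p = 0.998), so the ranges did not overlap for 4 of the 5 genes, against 39.8% of all genes.

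Whether a knockdown's difference from wild type changed between day 0 and insert day 4 was tested as an interaction. For INHBA in DENND5A-KD cells it passed (-1.22 ± 0.30, adjusted p = 0.038), the difference being 0.82 at day 0 and -0.40 at insert day 4, and 1.83% of all genes passed this test. It was the only call among the 5 genes, all 5 of which had an unadjusted p under 0.05. The call held in 4 of 11 omissions of a library, with adjusted p from 0.00903 to 0.243, and in 5 of 8 other settings, not with a pseudocount of 0.1 (0.0869), no filter (0.0552) or these groups alone (0.216). It was lost without wild-type day 0 replicate 2 or 3, wild-type insert day 4 replicate 1 or 2, either DENND5A-KD library of day 0 or DENND5A-KD number 1 at insert day 4. For AVL9-KD cells limma called 0 of the 5 genes, none with an unadjusted p under 0.05, where 1.22% of all genes passed, and the change was -0.53 ± 0.30 for INHBA (adjusted p = 0.534) and -1.58 for FST (adjusted p = 0.446).

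A direct comparison of the knockdowns was added after these values had been seen. INHBA was higher in AVL9-KD than in DENND5A-KD cells, by 1.39 ± 0.24 at day 0 (adjusted p = 0.00182) and by 2.08 ± 0.24 at insert day 4 (adjusted p = 2.403e-05). At day 0 it was 1 of the 5 genes to pass, where 4.12% of all genes did. At insert day 4 TGFBR2 was also higher (0.68, adjusted p = 0.00735) and TGFBI lower (-0.84, adjusted p = 0.0196), so 3 of 5 passed, where 22.4% of all genes did. That comparison was not centred on 0, with a median of 0.24 over all genes. It called 2254 genes higher and 386 lower (950 and 992 after quantile normalization). INHBA held in every omission of a library. At insert day 4 TGFBR2 did not pass without DENND5A-KD number 1 (0.151), nor did TGFBI without that library or either AVL9-KD library (0.0602 to 0.15). None of the 3 passed in a fit of these groups alone, which called 2 of all genes higher and 3 lower at day 0. At insert day 4 such a fit called 0 higher and 0 lower.

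Other genes of the pathway were taken from a list of 77, of which 74 had a row and 53 could be tested. None of them was chosen as a member above, but the list was written with earlier results on these libraries known. On gel days 3, 5 and 8 against insert days 4 and 11, 38 of the 53 were lower and 2 higher, where 34.8% of all genes were lower and 22.1% higher (56.9% in either direction), and their median difference was -0.51 against -0.08 over all genes. After quantile normalization 34 were lower and 2 higher. That normalization moved the split over all genes from 2602 higher and 4094 lower to 3574 and 3609.

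By role, 8 of 8 tested genes of latency and activation were lower on gel, among them LTBP1, which tethers latent TGF-beta to the matrix (-1.89 ± 0.10, adjusted p = 8.601e-11), and THBS1, the thrombospondin that can release it (-2.34 ± 0.17, adjusted p = 2.027e-09). LTBP1 read 118 ± 14.3 FPKM (SD, n = 4) at day 0, 50.0 ± 4.78 (n = 2) at gel day 3, 9.45 ± 0.488 (n = 2) at gel day 8, 83.9 ± 19.0 (n = 3) at insert day 4 and 95.0 ± 7.19 (n = 3) at insert day 11. Of 7 receptors, 6 were lower, with TGFBR1, the type I receptor for TGF-beta, at -0.50 ± 0.10 (adjusted p = 0.000217). Of 2 ligands INHBB, the activin beta B subunit, was lower (-0.41, adjusted p = 0.0337), and its level was at most 1.11 FPKM in every wild-type library. Of 4 antagonists and binding proteins, the follistatin-like genes FSTL1 (-1.72 ± 0.18, adjusted p = 2.67e-07) and FSTL3 (-0.75 ± 0.14, adjusted p = 0.000143) were lower, and BAMBI and BGN did not pass.

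Among the SMADs and their regulators, 10 of 14 were lower and 1 higher on gel. SMAD3, which carries the signal to the nucleus, read 15.3 ± 2.08 FPKM (n = 2) at gel day 3 and 23.0 ± 4.86 (n = 2) at gel day 8 against 48.4 ± 5.45 (n = 3) at insert day 4 and 66.7 ± 5.63 (n = 3) at insert day 11 (-1.49 ± 0.11, adjusted p = 2.391e-09). SMAD7, an inhibitor of the pathway, was the gene that was higher (0.59 ± 0.12, adjusted p = 0.00025), at 3.76 and 4.98 FPKM in the mean of gel days 3 and 8 against 2.27 and 2.63 at insert days 4 and 11. Of 18 targets, 11 were lower, led by COL4A1, a collagen chain of basement membranes (-3.14 ± 0.27, adjusted p = 1.538e-08), and CDKN1A, a cell cycle inhibitor, was higher (0.61 ± 0.19, adjusted p = 0.0114). COL4A1 read 0.648 ± 0.0440 FPKM (n = 2) at gel day 3 and 8.94 ± 3.102 (n = 2) at gel day 8 against 33.5 ± 11.9 (n = 3) and 45.9 ± 6.78 (n = 3) at insert days 4 and 11. Without gel day 3 replicate 1, and without the 5 libraries of low depth, 1 of these pathway genes was higher and 35 lower. On gel, INHBA, FST, TGFB2 and TGFBR2 lay on the side of the 38 lower genes, and TGFBI on that of SMAD7 and CDKN1A. The 5 genes were chosen with these levels known, so nothing is read from the side on which they lay.

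**Figure D4:**
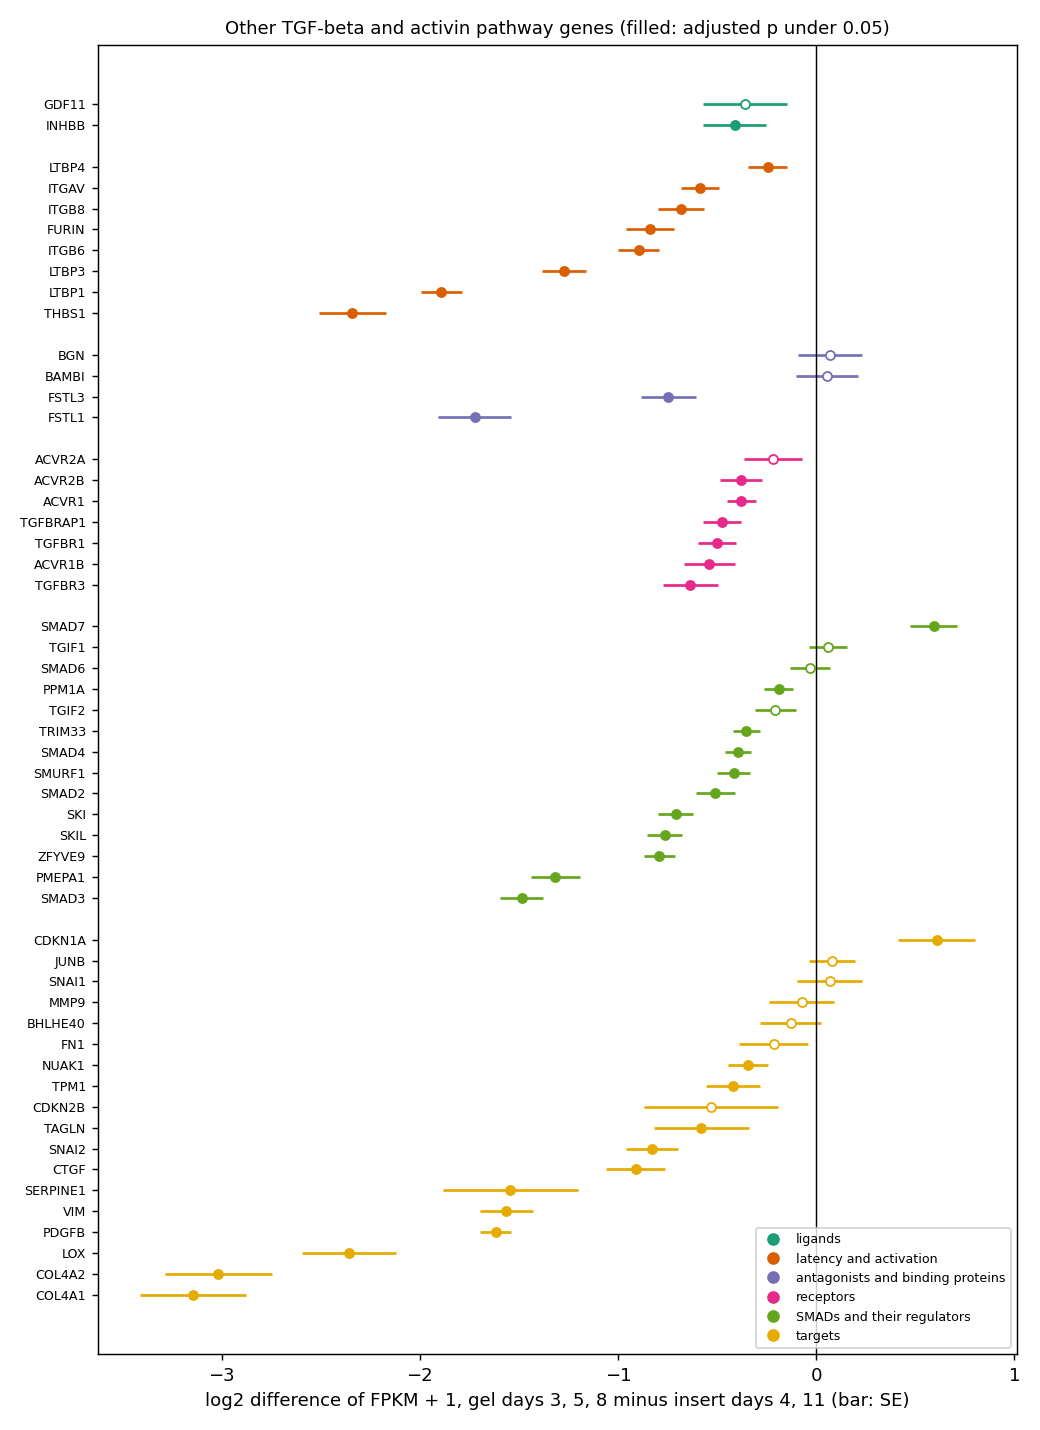
Log2 difference of FPKM + 1 (gel days 3, 5 and 8 minus insert days 4 and 11, with SE) for the 53 other pathway genes tested, coloured by role, with filled points for an adjusted p under 0.05. All 8 latency genes lie left of 0, and the filled points right of 0 are SMAD7 at 0.59 and CDKN1A at 0.61.

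Against day 0, the gel and insert comparisons share the day 0 libraries, so their values are given side by side. At gel day 8, 4 of the 53 genes were higher and 23 lower, where 24.7% and 38.0% of all genes were (62.8% together), and at insert day 4, 18 were higher and 13 lower, where 30.3% and 29.6% were (59.9% together). After quantile normalization the gel day 8 counts were 8 higher and 22 lower, and the split over all genes moved from 2911 higher and 4478 lower to 3633 and 3914. With median-ratio scaling they were 7 and 21, and 3936 and 3800 over all genes. LTBP3, which also binds latent TGF-beta, was higher by 0.79 ± 0.17 at gel day 8 and by 2.32 ± 0.15 at insert day 4. The co-receptor TGFBR3 was higher by 1.42 ± 0.21 and 2.05 ± 0.18, and the activin type I receptor ACVR1B by 1.44 ± 0.19 and 2.05 ± 0.17, all with adjusted p of 0.000414 or less. LOX, a collagen cross-linking enzyme, was lower by 4.72 at gel day 8 and by 1.96 at insert day 4, and VIM, an intermediate filament of mesenchymal cells, by 4.84 and 2.16. At gel 24 h 3 of the 53 genes were lower and none higher, where 1.19% of all genes passed: CTGF, a matricellular target (-1.50 ± 0.22, adjusted p = 0.00125), LOX (-1.49 ± 0.36, adjusted p = 0.0429) and the growth factor PDGFB (-0.56 ± 0.12, adjusted p = 0.0204). This count dropped to 1 without day 0 replicate 3 or gel 24 h replicate 2, and to 0 without gel 24 h replicate 3.

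In the knockdown cells more of the listed genes were higher than lower. At day 0, 12 were higher and 2 lower in DENND5A-KD cells (3.27% and 2.25% of all genes), and 18 and 4 in AVL9-KD cells (13.4% and 4.59%). At insert day 4 the counts were 12 and 4 for DENND5A-KD (5.54% and 5.79%) and 20 and 1 for AVL9-KD (18.7% and 2.34%). The last count dropped to 11 higher and 2 lower after quantile normalization, and to 11 higher without wild-type insert day 4 replicate 3 or AVL9-KD number 1. Without DENND5A-KD number 2 the day 0 count was 6 higher, and without AVL9-KD number 1 it was 6 higher and 2 lower. For DENND5A-KD at insert day 4 it was 7 higher without wild-type replicate 1 or 3 or DENND5A-KD number 2. The counts of lower genes, at most 4 in each comparison, ranged from 0 to 6 over the omissions.

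ACVR1, a type I receptor of the family, was higher in all 4 of these comparisons: by 0.85 ± 0.11 and 1.04 ± 0.12 in DENND5A-KD cells at day 0 and insert day 4, and by 0.92 ± 0.11 and 1.08 ± 0.12 in AVL9-KD cells (adjusted p from 4.24e-06 to 3.784e-05). FSTL1 read 11.7 ± 4.29 FPKM (n = 4) in wild-type and 50.0 ± 1.60 (n = 2) in DENND5A-KD cells at day 0 (2.08 ± 0.28, adjusted p = 6.087e-05), and 5.22 ± 1.45 (n = 3) against 34.3 ± 0.858 (n = 2) at insert day 4 (2.53 ± 0.29, adjusted p = 1.143e-05). ITGAV, the integrin chain of the receptors that activate latent TGF-beta, was higher by 0.94 and 1.06 at day 0 in DENND5A-KD and AVL9-KD cells, and by 1.36 in AVL9-KD cells at insert day 4. In AVL9-KD cells at insert day 4, INHBB read 5.39 ± 0.503 FPKM (n = 2) against 0.578 ± 0.0457 (n = 3) in wild-type cells (2.02 ± 0.25, adjusted p = 2.556e-05), and LTBP4 13.8 ± 1.95 (n = 2) against 2.68 ± 0.692 (n = 3) (2.02 ± 0.15, adjusted p = 6.142e-08). TGFBR3 was lower in DENND5A-KD (-1.01 ± 0.22, adjusted p = 0.00431) and in AVL9-KD cells (-0.63 ± 0.22, adjusted p = 0.044) at insert day 4.

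The genes whose pattern was most like each of the 5 were ranked by Pearson's r over the 13 group means of log2(FPKM + 1), among 8077 genes, as a description without a test, since each point is a mean of 1 to 4 libraries and most groups are times of 1 culture. For INHBA these were SEPT9 (r = 0.987), C18orf25 (0.985) and EREG (0.984), and for FST they were LOX (0.987), MAP2 (0.980) and LIFR (0.976). For TGFB2 they were MYH9 (0.990), PDGFB (0.986) and NACC2 (0.978), and for TGFBR2 MGAT5 (0.981), SLC41A1 (0.977) and JADE1 (0.977). For TGFBI, the genes DRAM2, SLC35B3 and ID4 all had r = 0.948. ID4, a helix-loop-helix inhibitor of transcription, read 0.641 FPKM in the mean of day 0, 8.16 over gel days 3, 5 and 8 and 0.750 over insert days 4 and 11. Among INHBA, FST, TGFB2 and TGFBR2 themselves, r ran from 0.81 (TGFB2 and INHBA) to 0.94 (INHBA and FST). Between TGFBI and each of these it ran from -0.93 (TGFB2) to -0.69 (INHBA). The 13 means include the gel and insert groups for which the 5 genes were chosen.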

How the data were processed

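The authors deposited 1 file per library with an FPKM value for each Ensembl dog gene. Per the submitters' processing notes the tools were HISAT2 2.1.0 and Cufflinks 2.2.1 and the builds canFam3 and CanFam3.1, without saying which step each served. Per the labels' protocols libraries were stranded mRNA libraries. No source used here says if the values were scaled further, and absolute depth is unknown. Gene models were taken as listed, with no coordinates.

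All 29 libraries entered a limma 3.58.1 fit (R 4.3.3, trend, 2-sided) of log2(FPKM + 1) with a mean for each of the 13 groups, over the 11774 genes that reached 1 FPKM in 2 or more libraries. P-values were adjusted by Benjamini-Hochberg over these genes and called under 0.05, and the pipeline was tested on simulated data. Overlap means that the libraries' FPKM ranges meet. Other pathway genes were named when among the 4 smallest adjusted p per contrast and direction with the higher group's mean at 5 FPKM or more, or in a list with 5 or fewer called. TGFBR1, BAMBI and BGN were named after their values were seen. The members and the pathway and marker lists were chosen with earlier results of these data known, and the falls of INHBA at 24 h and of FST at gel day 8 had been seen there.

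Whether libraries of 1 number pair was checked from their deviations from group means. Pairing was taken to need r over 0.1 in every pair, which wild-type numbers did not reach (-0.16 to 0.558, 19 of 41 pairs above). Among day 0, gel days 3 and 8 and insert day 4, however, all 6 pairs of number 1 (0.399 to 0.558) and of number 2 (0.233 to 0.472) did, so block results that change a call stand beside it. In groups of 2 libraries the deviations mirror each other, and those of number 1 are 4 of the 5 libraries of low depth. Knockdown libraries of 1 number are the same line by their labels (r = 0.358 for AVL9-KD, 0.0101 to 0.0966 for DENND5A-KD). Alternatives were quantile and median-ratio scaling, a pseudocount of 0.1, no filter, a replicate block (random or fixed), the groups of a contrast alone, a batch term for the 5 libraries of low depth or their omission, and leaving out each library. Files were read and figures drawn in Python 3.11.15 (pandas 2.3.3, numpy 2.4.6, matplotlib 3.10.9).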

Additional observations from a re-analysis of the deposited data

Results flagged for a closer look

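The difference of INHBA between DENND5A-KD and wild-type cells was called as changed between day 0 and insert day 4, by the test of the interaction in limma (-1.22 ± 0.30, adjusted p = 0.038). DENND5A-KD cells read 18.1 and 17.0 FPKM at day 0 against 13.8, 9.71, 9.26 and 6.56 FPKM in wild-type cells, and 1.25 and 1.69 FPKM at insert day 4 against 2.92, 2.83 and 1.30 FPKM. The knockdown libraries lay above all wild-type libraries at day 0 and overlapped them at insert day 4. The call was lost with a pseudocount of 0.1, with no filter and in a fit of these groups alone. Over 11 omissions of a library the value ranged from -1.47 to -1.06, and the call was lost in 7 of them. Without DENND5A-KD number 1 at insert day 4 the adjusted p was 0.243, the highest of these. No cause was tested.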

How the results depend on the processing

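With a pseudocount of 0.1 the gel and insert differences grew, to -4.27 for TGFB2, 3.07 for TGFBI, -2.37 for INHBA and -3.98 for FST. Other pathway genes higher on gel numbered 1 without the 5 libraries of low depth (1 to 2 when 1 library was left out). The small TGFBR2 difference of insert day 4 against day 0 changed sign with quantile normalization (0.0686) and ranged from -0.19 to 0.0641 when 1 library was left out. For DENND5A-KD at day 0, TGFBR2 passed with quantile (0.42) and median-ratio scaling (0.41), a batch term (0.48) and without the 5 libraries (0.46). INHBA did not pass with a pseudocount of 0.1 (0.88) or in a fit of the contrast's groups alone (0.82), nor TGFB2 without the 5 libraries (1.07), where FST did (1.88). For AVL9-KD at day 0, TGFBI did not pass with no filter (-0.62), alone (-0.62) or with a batch term (-0.59), nor FST alone (2.14). At insert day 4 neither TGFBR2 (0.58) nor INHBA (1.67) passed alone, a fit of 5 libraries that called 20 of all genes higher and 5 lower. For gel 24 h against day 0 the fit alone called 8 higher and 8 lower. Not passing in fits that call so few genes says little about a single gene. The cause was not tested.

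With 1 library left out, DENND5A-KD differences at day 0 ranged from 1.07 to 1.30 (TGFB2), 0.66 to 0.98 (INHBA) and 0.97 to 1.88 (FST), and that of INHBA at insert day 4 from -0.66 to -0.27. AVL9-KD differences ranged from -0.77 to -0.46 (TGFBI) and 1.72 to 2.63 (FST) at day 0, and from 0.47 to 0.73 (TGFBR2) and -0.37 to 1.02 (TGFB2) at insert day 4.

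With a replicate block (random, correlation 0.2007), TGFBI in AVL9-KD cells at day 0 did not pass (-0.62, adjusted p = 0.06) and TGFB2 at gel 24 h did (adjusted p = 0.0275, and 0.0333 with a fixed block). No other call among the 5 genes changed with the block. Absolute depth is unknown, so the lowest values (INHBA and FST at gel days 5 to 14) have no counting interval.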

Other observations

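The FPKM of FST divided by that of INHBA in the same library gives the level of the antagonist's transcript per transcript of the activin subunit, on a scale per length. The ratio was 1.74 to 5.86 in the 4 day 0 libraries (median 2.87), 2.66 to 4.20 at insert day 4 and 3.07 to 3.97 at insert day 11. On gel it was 2.01 and 2.58 at 24 h, 1.069 and 1.202 at day 3 and 0.779 and 1.06 at day 5, so the libraries of gel days 3 and 5 lay below all wild-type insert and day 0 libraries. At gel day 8 it was 1.21 and 3.36, and 0.448 in the day 14 library, where neither transcript was above 0.235 FPKM. In DENND5A-KD cells the ratio was 3.67 and 5.07 at day 0, 3.01 and 6.65 at insert day 4 and 6.31 and 8.39 at insert day 7. The ranges of insert days 4 and 7 overlapped. In AVL9-KD cells it was 1.92 and 3.78 at day 0. At insert day 4 it was 1.14 and 1.48 there, below the wild-type libraries of the same day. These ratios were computed after the levels had been seen and were not tested.

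Of the 53 other pathway genes, limma called 3 for a changed AVL9-KD difference from wild type between day 0 and insert day 4. Over all genes 1.22% passed this test. The 3 were INHBB (1.43 ± 0.35, adjusted p = 0.0473), LTBP4 (1.41 ± 0.21, adjusted p = 0.002) and TAGLN (2.13 ± 0.52, adjusted p = 0.0489). All 3 differences were larger at insert day 4. Without wild-type day 0 replicate 2 the count was 1. In DENND5A-KD cells 1 of the 53 was called higher and 1 lower, where 1.83% of all genes passed. TAGLN encodes transgelin, an actin-binding protein of contractile cells.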
